A study of Mus musculus with 5 samples.

Results

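The genes described here control how many genome copies a hepatocyte carries. They are the activator E2f1, the atypical repressors E2f7 and E2f8, the PIDDosome genes Pidd1, Cradd and Casp2, and the cytokinesis genes Anln, Ect2, Racgap1 and Cit. They were chosen by gene symbol, and 10 of the 10 were found among the 23022 genes of the authors' deposited table. The table compares livers of mouse embryos of stage E18.5, shortly before birth, in 2 groups. The 4N group held 3 libraries from embryos that were Hhex knockout and had received tetraploid embryonic stem cells, called 4N-ESCs and positive for the red fluorescent protein td-Tomato, at the blastocyst stage. The WT group held 2 libraries from normal embryos of the same day. Ploidy, cell origin, host genotype and embryo manipulation thus changed together between the groups. Whether libraries of one group came from different litters is not in the labels, nor how many stem cell clones were used or what share of a 4N liver the injected cells made, so p-values measure the spread between these samples only.

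Hepatocytes are among the few mammalian cells that become polyploid in normal life, mostly around weaning, when cells finish mitosis but fail to divide. E2F1 switches on genes of DNA replication and mitosis, whereas E2F7 and E2F8 repress an overlapping set and thereby favour incomplete cytokinesis in the growing liver. Cells that fail to divide keep extra centrosomes, which are sensed through PIDD1, a protein anchored at the mother centriole. There PIDD1 and the adaptor CRADD (also called RAIDD) activate caspase-2, which cuts MDM2 and stabilises p53, and so limits further rounds of ploidy increase. The cytokinesis proteins build the furrow itself. RACGAP1 and its kinesin partner bring ECT2, the activator of the small GTPase RHOA, to the central spindle, anillin (Anln) scaffolds the contractile ring, and citron kinase (Cit) acts late, at the midbody.

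The letters of 2 promoter elements known from cell cycle genes were looked up in the start regions of these genes and are shown first, because the 10 genes differ in which of them they hold. The searched regions were the RefSeq windows of build GRCm38.p6, which run from 250 bases before to 50 bases after a gene start, and 10 of the 10 symbols matched (Ect2 has 2 windows, of which the outer one is used here). The cell cycle genes homology region (CHR), known from genes of G2 and mitosis, was searched as TTTGAA on both strands, and 17.9% of all 32851 windows hold it. It was found for Ect2, Anln, Racgap1 and E2f8. The stretches below are written 5′ to 3′ on the gene's strand with these letters, or their reverse complement, in capitals, and the second Anln match is the tttgaa that begins 1 base after the first ends.
Ect2: ccgtttaccggaTTTGAAacacactcacaa
Anln: ggggcgctgaaaTTCAAAttttgaacggcc
Racgap1: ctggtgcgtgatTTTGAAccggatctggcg
E2f8: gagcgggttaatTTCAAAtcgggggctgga
They lie at chr3:27153975-27154004 (Ect2), chr9:22389168-22389197 (Anln), chr15:99651634-99651663 (Racgap1) and chr7:48881599-48881628 (E2f8), all on the minus strand. The matches begin before the gene start at position -114 for Ect2 and -20 for E2f8, and after it at position 22 for Anln and 6 for Racgap1, counted from the start with no position 0. Ect2 holds a second match that begins at position 40.

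E2F sites were searched as TTCCCGC or TTGGCGC on both strands, which 6.81% of all windows hold. Such letters were found for E2f7, Casp2, E2f8, Pidd1 and Ect2. Of these, E2f7 holds 3 and Casp2 holds 2, and 1 of each is shown with the single ones of E2f8 and Pidd1.
E2f7: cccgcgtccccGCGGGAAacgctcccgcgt
Casp2: ccctcgctcttTTCCCGCcccttcccgttc
E2f8: agaggcgcggaTTGGCGCgcggggccccgg
Pidd1: gaagcgcgccgGCGGGAAggcagcacagag
The stretches lie at chr10:110745230-110745259 on the plus strand (E2f7), chr6:42264878-42264907 on the plus strand (Casp2), chr7:48881689-48881718 on the minus strand (E2f8) and chr7:141444003-141444032 on the minus strand (Pidd1). At E2f8 and Ect2 the E2F letters overlap those of a CCAAT box, described next. No match of either element was found for E2f1, Cit and Cradd. The RefSeq starts of E2f1 and Cit lie 466 and 378 bases inside the gene as GENCODE M21 places it on the same assembly, so the windows of these 2 genes do not cover that outer start.

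The CCAAT box (CCAAT on both strands, held by 37.4% of windows) accompanies the CHR in many mitotic promoters. Both were present for Ect2, Racgap1 and E2f8, against 6.95% of all windows. The 130 bases before the Ect2 start (chr3:27153879-27154008, minus strand) are given because they hold 1 CHR and 2 CCAAT matches, all in capitals.
Ect2: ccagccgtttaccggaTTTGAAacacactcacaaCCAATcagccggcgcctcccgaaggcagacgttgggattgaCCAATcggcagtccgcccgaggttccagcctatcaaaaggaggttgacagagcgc
A match of letters is a description of the sequence and does not show that a factor binds there.

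**Figure D1:**
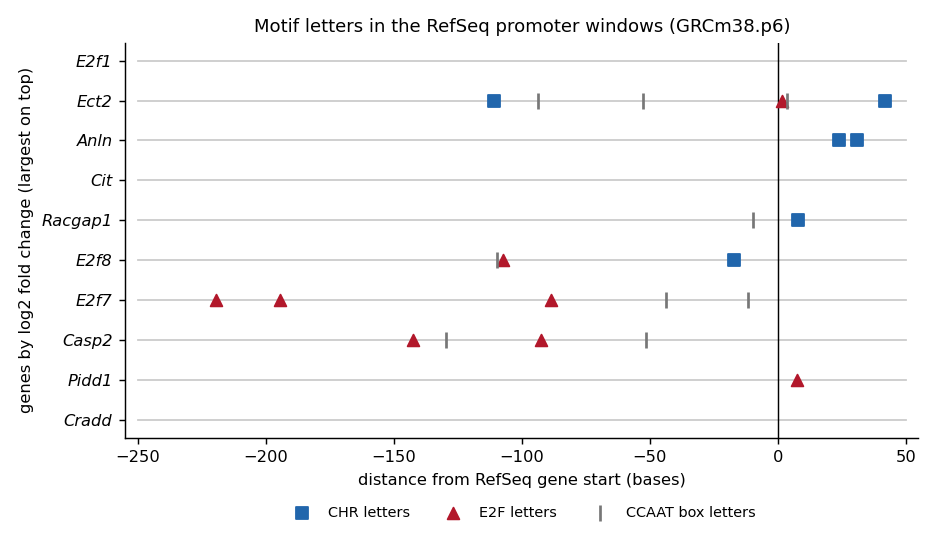
Each grey line is the RefSeq window of 1 gene (GRCm38.p6), with distance from the gene start in bases on the horizontal axis and genes ordered by log2 fold change. Blue squares mark CHR letters, red triangles E2F letters and grey ticks CCAAT letters; CHR letters are seen only for Ect2, Anln, Racgap1 and E2f8, and E2f1, Cit and Cradd have no mark of any kind.

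The table gives group results and not the values of single livers, so each gene has 1 mean normalized count over all libraries and 1 fold change with its standard error (SE). Group levels below are fitted means, computed from these values for 3 and 2 libraries. They have no standard deviation of their own, and their error is that of the fold change. No numerator is named in the table, and every direction given here rests on reading its log2 fold changes as 4N over WT, which was inferred from the standard errors. With 4N as the numerator, 0 of 23022 genes had an SE smaller than counting noise allows, and with WT as the numerator 22 did. Library depth is unknown. The 8656 genes with a mean of 1000 normalized counts or more had a median SE of 0.24. Hhex, which the host embryos lacked, had fitted means of 6753 in 4N and 4607 in WT and did not pass the test (0.55 on the log2 scale, SE 0.33, with an adjusted p of 0.29 per the authors' deposited table). The 10 hepatocyte markers were present in both groups, with a median log2 fold change of -0.32 and 3 called lower.

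The question for these genes was whether livers of the 4N group differ from WT livers in the transcripts that promote or restrain division and ploidy. The activator E2f1, the repressor E2f8 and the 4 cytokinesis genes were higher in 4N liver, and the 3 PIDDosome genes and E2f7 did not pass the test. Of the 10 genes, 6 rose and 0 fell when the authors' Wald test is read at an adjusted p under 0.05. Of all genes tested, 7.94% rose and 7.41% fell by the same rule, and among genes averaging 1000 or more the shares were 11.9% and 10.3%. The median log2 fold change of the 10 genes was 0.63, against -0.0010 over all genes and 0.02 over those averaging 1000 or more. The 6 calls rest on the normal reference of that test. Read against a t distribution with 3 degrees of freedom, 0 of the 10 genes passed. The same reading left 0 of all 23022 genes, so this count is not particular to the 10. At an unadjusted p under 0.05 by that reading, 5 of the 10 and 2513 of all genes passed. Adjusted over all genes, 0 of the 6 changes were shown to exceed 1.5-fold, against 521 rises and 588 falls among all 23022 genes. Fold changes are relative to the authors' scaling of the libraries. Recentring on secreted plasma proteins added 0.58 to each log2 fold change, which raised the members called higher to 8 and changed the table's split from 1828 higher against 1705 lower to 6773 against 851.

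**Figure D2:**
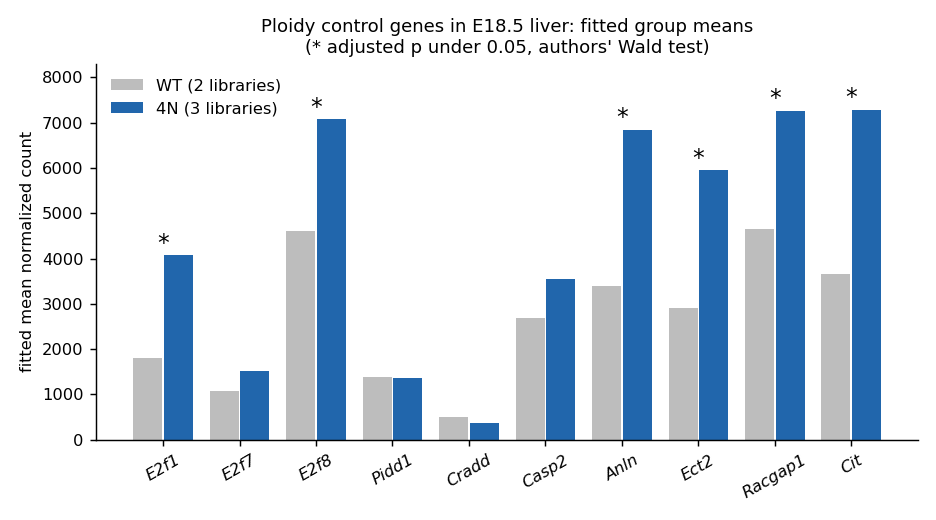
Bars give the fitted mean normalized count of each gene in WT (grey, 2 libraries) and 4N (blue, 3 libraries) liver on a linear axis from 0, without error bars because the table gives group results only; levels of different genes are not comparable because they are not per length. Stars mark adjusted p under 0.05, and the 6 starred genes have the higher bar in 4N while Pidd1 has nearly equal bars of 1367 and 1394.

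E2f1, the best known activating E2F, had the largest change of the 10. Its fitted mean was 4071 in 4N and 1799 in WT. The authors' deposited table put it at 1.18 on the log2 scale (SE 0.29, adjusted p = 0.00073). That is 2.26-fold, with a 95% interval of 1.53-fold to 3.35-fold. Among the 8656 genes averaging 1000 or more, 3.74% had a larger log2 fold change.

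The atypical E2Fs, which carry a pair of DNA-binding domains and bind without a DP partner, stood lower than E2f1 in size of change. E2f8 rose from a fitted mean of 4619 in WT to 7071 in 4N. The authors' deposited table put it at 0.61 on the log2 scale (SE 0.21, adjusted p = 0.026), or 1.53-fold with an interval of 1.15-fold to 2.03-fold. E2f8 was the only one of the 6 higher genes whose call ended when the threshold was set at an adjusted p of 0.01. E2f7, its close relative, did not pass. Its fitted means were 1517 in 4N and 1072 in WT, and the authors' deposited table gave 0.50 (SE 0.24, adjusted p = 0.16, unadjusted p = 0.036). The E2f7 interval of 0.03 to 0.97 on the log2 scale holds the E2f8 value, so the pair is not shown to differ, and the differences between E2f1 and either repressor were not tested because genes of the same libraries share their errors.

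Other members of the E2F network varied in whether they passed the test, and differences between them were not tested. Of 20 E2F and DREAM complex genes, 6 rose, 0 fell and 14 did not pass, with a median log2 fold change of 0.39 (14 called higher after recentring on secreted plasma proteins). Without E2f1, E2f7 and E2f8, 4 of 17 rose and the median was 0.31. E2f2, another activating E2F, rose by 0.99 on the log2 scale (SE 0.30, with an adjusted p of 0.0081 per the authors' deposited table), and the third, E2f3, stood at -0.17 (SE 0.22, with an adjusted p of 0.72 per the authors' deposited table).

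Among the repressor class of classical E2Fs, E2f4 rose (0.66, SE 0.23, with an adjusted p of 0.035 per the authors' deposited table). E2f5 stood at -0.29 (SE 0.32) and E2f6 at -0.23 (SE 0.24), both without passing, per the authors' deposited table. The dimerization partners of E2Fs also differed in their values. Tfdp2 had the list's largest change at 1.24 (SE 0.23, adjusted p = 1.3e-06), whereas Tfdp1 stood at -0.14 (SE 0.22), per the authors' deposited table. The pocket protein Rb1, which restrains activating E2Fs, was at 0.47 (SE 0.25, adjusted p = 0.22) per the authors' deposited table. Foxm1, the transcription factor that works with CHR-bound complexes in G2, rose by 0.84 on the log2 scale (SE 0.23, with an adjusted p of 0.0037 per the authors' deposited table).

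Genes that E2F1 activates and E2F7 and E2F8 repress at the entry to S phase had mostly positive values, and most did not pass under the authors' scaling. Of 30 E2F-regulated G1 and S phase genes, 8 rose, 0 fell and 22 did not pass, with a median of 0.40 and 29 positive values. The share that rose among all genes averaging 1000 or more was 11.9%. Recentred on secreted plasma proteins, 29 of the 30 were called higher. Ccna2, the cyclin of S phase and G2, stood at 1.12 (SE 0.21) and the replication clamp Pcna at 0.85 (SE 0.19), per the authors' deposited table. Cdc6, which loads the replicative helicase, and Rrm1, a subunit of ribonucleotide reductase, also rose, by 0.78 (SE 0.22) and 0.71 (SE 0.21) per the authors' deposited table. The E-type cyclins, which drive the G1 to S transition, did not pass. Ccne1 was at 0.05 (SE 0.21) and Ccne2 at 0.40 (SE 0.29) per the authors' deposited table.

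**Figure D3:**
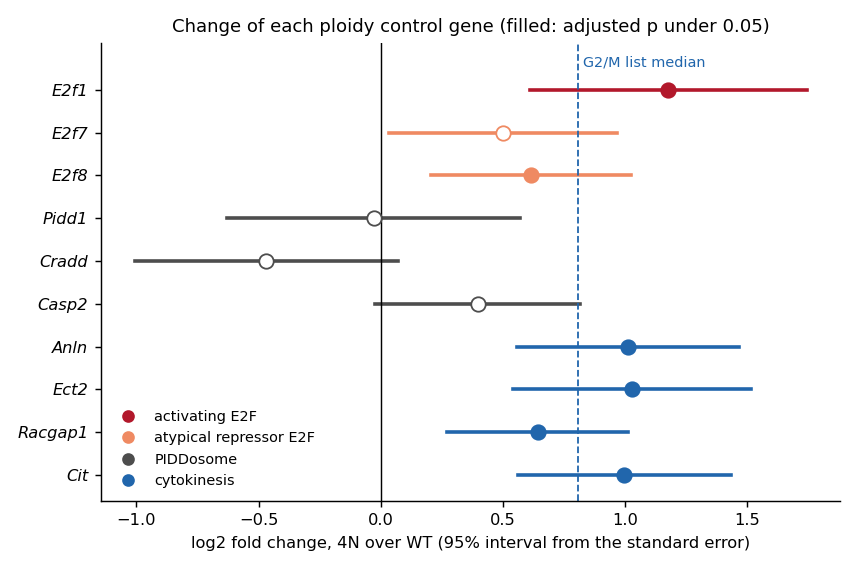
Points give the log2 fold change of each gene (4N over WT) and lines its 95% interval from the standard error; filled points have an adjusted p under 0.05 and colours give the role. The dashed line is the median of the G2 and M phase list at 0.81, which lies inside the interval of every gene except Pidd1 and Cradd.

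The PIDDosome genes did not pass the test, and their 3 values spread on either side of 0. Casp2, the protease, had fitted means of 3542 in 4N and 2689 in WT. The authors' deposited table put it at 0.40 on the log2 scale (SE 0.21, adjusted p = 0.23), and the 95% interval ran from 0.98-fold to 1.76-fold. Pidd1, which senses the extra centrosome, had fitted means of 1367 in 4N and 1394 in WT.

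The Pidd1 log2 fold change was -0.03 (SE 0.31, with an adjusted p of 0.97 per the authors' deposited table), with the largest SE of the 10 genes and an interval of 0.65-fold to 1.49-fold. Cradd, the adaptor between them, had the lowest mean of the 10 at 423 normalized counts. Its fitted means were 367 in 4N and 507 in WT. The authors' deposited table gave -0.47 (SE 0.28, adjusted p = 0.28), with an interval of 0.50-fold to 1.05-fold. Under the authors' scaling and the normal reference, a rise of 1.5-fold lay outside the Cradd interval and inside that of Casp2. The Pidd1 interval ended at 1.49-fold, so close to 1.5-fold that such a rise is not firmly excluded. Intervals were not computed for a t distribution or after recentring, so a 1.5-fold rise is not excluded under those readings. After recentring on secreted plasma proteins, Casp2 and E2f7 passed the test, at 0.98 (adjusted p = 5.8e-05) and 1.08 (adjusted p = 6.3e-05), against adjusted p-values of 0.19 to 1 and 0.12 to 1 under their other alternatives. The same recentring turned Pidd1 to 0.55 and Cradd to 0.11, neither of which passed.

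Under the authors' scaling most genes upstream and downstream of the PIDDosome did not pass, which also holds for the table as a whole. Of all genes tested, 7.94% rose and 7.41% fell, and among genes averaging 1000 or more 11.9% and 10.3% did. Ankrd26, the distal appendage protein that anchors PIDD1 at the centriole, stood at 0.20 (SE 0.26, with an adjusted p of 0.72 per the authors' deposited table). Of 19 centriole duplication and distal appendage genes, 2 rose, 0 fell and 17 did not pass, with a median of 0.39, whereas 13 were called higher after the same recentring. The risers were the appendage gene Odf2 (0.72, SE 0.21) and the scaffold gene Cep192 (0.69, SE 0.23), per the authors' deposited table. The caspase-2 substrate Mdm2 stood at 0.07 (SE 0.20) and Trp53, which encodes p53, at -0.03 (SE 0.21), per the authors' deposited table. Neither passed, nor did the p53 target Cdkn1a, which encodes the cell cycle inhibitor p21 (-0.29, SE 0.39, with an adjusted p of 0.72 per the authors' deposited table).

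Of 23 p53 regulators and target genes, 4 rose, 3 fell and 16 did not pass, with a median of -0.03. The shares among all genes averaging 1000 or more were 11.9% higher and 10.3% lower. Plk2 (1.34, SE 0.26), a centriole-associated kinase, and the stress gene Gadd45a (1.17, SE 0.27) rose per the authors' deposited table. Perp (-1.23, SE 0.21), which encodes a junction protein, and the nuclease gene Aen (-0.90, SE 0.24) fell per the authors' deposited table. A transcript level does not measure cleavage of MDM2 or the amount of p53 protein.

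All 4 cytokinesis genes rose, 3 of them close to 2-fold. Ect2 went from a fitted mean of 2916 in WT to 5945 in 4N. The authors' deposited table put it at 1.03 on the log2 scale (SE 0.25, adjusted p = 0.00056), with an interval of 1.45-fold to 2.86-fold. Anln, the ring scaffold, had 3393 in WT and 6845 in 4N.

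The Anln log2 fold change was 1.01 (SE 0.23, with an adjusted p of 0.00023 per the authors' deposited table), with an interval of 1.47-fold to 2.76-fold. Cit, the midbody kinase, had 3649 in WT and 7283 in 4N, and the authors' deposited table gave it 1.00 (SE 0.22, adjusted p = 0.00014), with an interval of 1.48-fold to 2.70-fold. Racgap1 had the smallest change of these 4, from 4650 to 7260. The authors' deposited table gave it 0.64 (SE 0.19, adjusted p = 0.0072), with an interval of 1.21-fold to 2.02-fold. The Racgap1 interval overlaps those of Ect2, Anln and Cit, and the difference was not tested.

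Partners of these proteins at the central spindle rose with them. Of 15 central spindle and chromosomal passenger genes, 13 rose, 0 fell and 2 did not pass, with a median of 0.78, and without Ect2 and Racgap1 11 of 13 rose. Kif23, the kinesin that forms the centralspindlin complex with RACGAP1, stood at 0.78 (SE 0.24, with an adjusted p of 0.0093 per the authors' deposited table). Plk1, the kinase that licenses ECT2 binding, rose by 1.06 on the log2 scale (SE 0.27, with an adjusted p of 0.0011 per the authors' deposited table). Aurkb, the kinase of the chromosomal passenger complex, rose by 0.78 (SE 0.25, with an adjusted p of 0.017 per the authors' deposited table). The spindle bundler Prc1 (1.03, SE 0.21) and the kinesin Kif14, a binding partner of citron kinase (0.95, SE 0.23), rose as well per the authors' deposited table. RefSeq windows were matched for 12 of these 15 genes, and 11 of the 12 (91.7%) hold the CHR letters, against 20.2% of all 27025 symbols.

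Of 28 G2 and M phase genes, 22 rose, 0 fell and 6 did not pass, with a median of 0.81. Cdc25b, a phosphatase that starts mitosis, was the largest at 1.35 (SE 0.22), followed by the kinetochore gene Cenpf at 1.18 (SE 0.22), per the authors' deposited table. The ubiquitin-conjugating enzyme Ube2c (1.04, SE 0.20) and the spindle kinase Aurka (0.95, SE 0.19) rose too per the authors' deposited table. Ect2, Anln and Cit stood 0.19 to 0.22 above the median of that list on the log2 scale, and Racgap1 stood 0.17 below it (a difference of -0.17). The median lies inside the 95% intervals of 8 of the 10 genes. CHR letters were found in 17 of the 26 genes of this list with a window (65.4%), and in 2 of 23 (8.7%) of the G1 and S phase list, of which 13 (56.5%) hold the E2F letters against 7.79% of all symbols.

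Most genes of the contractile ring and of abscission did not pass under the authors' scaling, which also holds for the table as a whole. Among all genes tested 7.94% rose, and among genes averaging 1000 or more 11.9% did. Of 24 contractile ring genes, 6 rose and 0 fell, the other 18 not passing, and without Anln and Cit 4 of 22 rose with a median of 0.25. After recentring on secreted plasma proteins, 19 of the 24 were called higher. Rhoa, the GTPase that ECT2 activates, stood at 0.30 (SE 0.20, with an adjusted p of 0.37 per the authors' deposited table). The formin Diaph3 (0.94, SE 0.26) and the myosin heavy chain Myh10 (0.78, SE 0.23) rose per the authors' deposited table. Of 18 abscission and ESCRT genes, which cut the last bridge between daughter cells, 1 rose, 0 fell and 17 did not pass, with a median of -0.03. The riser was Chmp4c, an ESCRT subunit that acts in the abscission checkpoint (0.92, SE 0.21, with an adjusted p of 0.00025 per the authors' deposited table).

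**Figure D4:**
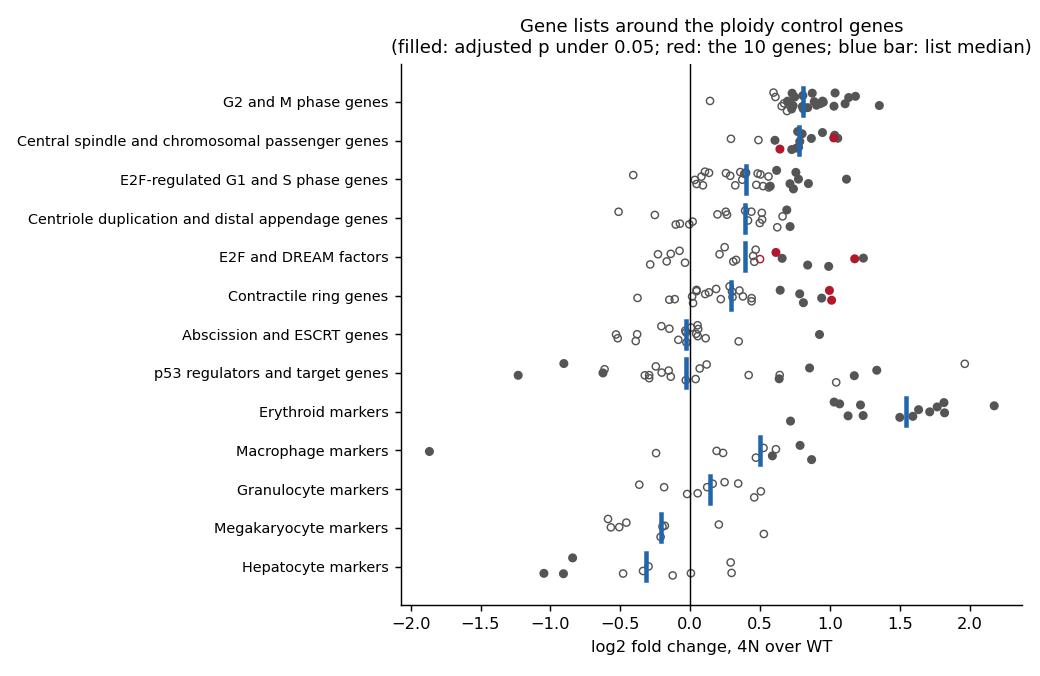
Each point is the log2 fold change of 1 gene (4N over WT), by list; filled points have an adjusted p under 0.05, red points are ploidy control genes and blue bars are list medians. The median falls from 0.81 for G2 and M phase genes to -0.03 for abscission and ESCRT genes, and erythroid markers stand at 1.55; recentring on secreted plasma proteins would shift every point up by 0.58 and turn the negative medians of the abscission, p53, megakaryocyte and hepatocyte lists positive.

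The livers were measured in bulk, so more cells of a type and more RNA per cell cannot be told apart, and scaling by library does not show RNA per cell or per genome. Fetal liver holds many dividing blood precursors beside hepatocytes, and erythroid markers moved with the division genes. Of 14 measured erythroid markers, 14 rose, with a median of 1.55 and a summed fitted mean of 3127870 in 4N against 944701 in WT (3.31 times). No defining erythroid marker was at 0, and Ahsp was not listed. Those with the smallest adjusted p were Trim10 (2.18, SE 0.25), Hbb-bs (1.71, SE 0.20), Kel (1.64, SE 0.20) and Alas2 (1.82, SE 0.22) per the authors' deposited table. The part of these cells in the rise of E2f1, E2f8 and the cytokinesis genes was not tested.

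Under the authors' scaling, 0 markers of megakaryocytes and granulocytes passed, whereas 3 of 10 macrophage markers rose and 1 fell. Of all genes tested, 7.94% rose and 7.41% fell. Recentring on secreted plasma proteins raised the markers called higher to 8 of 10 for macrophages, 5 of 10 for granulocytes and 1 of 9 for megakaryocytes. Of 9 measured markers of megakaryocytes, themselves polyploid cells, 0 passed the test, with a median of -0.21, and the 2 most abundant, Ppbp and Itga2b, stood at -0.51 (SE 0.24) and -0.46 (SE 0.30) per the authors' deposited table. Gp1bb was not listed. Of 10 granulocyte markers 0 passed, with a median of 0.14, and S100a9 (0.05, SE 0.30) and S100a8 (-0.19, SE 0.41) were the most abundant per the authors' deposited table. Of 10 macrophage markers, 3 rose (Csf1r at 0.87, Adgre1 at 0.79, C1qb at 0.59) and Vsig4 fell (-1.87), per the authors' deposited table.

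Of 10 hepatocyte markers, 0 rose and 3 fell, with a median of -0.32. The urea cycle gene Cps1 (-0.91, SE 0.24) and the lipoprotein genes Apob (-1.05, SE 0.32) and Apoa1 (-0.84, SE 0.28) were lower per the authors' deposited table. Of 32 secreted plasma proteins, 1 rose and 17 fell, with a median of -0.58. The 4 with the smallest adjusted p were Hpx (-2.67), A2m (4.91), Apoc3 (-4.07) and Hp (-3.48) per the authors' deposited table. After recentring on those proteins, 3 hepatocyte markers were called higher and 0 lower. Since 8 of the 10 hepatocyte markers are themselves among the 32 secreted plasma proteins, that outcome is not independent of the recentring. The same recentring called 10 of the 18 abscission and 10 of the 23 p53 genes higher (1 of the latter lower).

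Reads of overlapping genes could enter some of the values, since the counting is not given in the sources used here. In GENCODE M21, 4 of the 10 genes overlap another gene of the deposited table. Each of these neighbours was small beside its partner, with a mean of 83.1 normalized counts for Gm2788 (opposite strand of E2f8), 15.7 for Gm48646 (within Anln), 7.28 for Gm42471 (within Cit) and 3.94 for Gm48882 (opposite strand of Cradd).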

How the data were processed

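Poly(A)-selected RNA of 5 livers was sequenced, per the labels' protocols, with genome build GRCm39, per the submitters' processing notes. Which aligner and counter were used is not given in the sources used here. What the authors deposited was 1 comparison table. Per the file headers, its signal column is a normalized count averaged over libraries. Fold changes with their errors were deposited as log2 values. The deposited Wald score equals the fold change divided by that error. The p-values are the authors' own, and a recomputation of the adjusted p-values over all 23022 genes (Benjamini-Hochberg) changed 0 calls at 0.05. The column names are those of DESeq2, per the file headers.

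Fitted group means and 95% intervals (normal) were computed from these values. The direction, which the table does not name, was inferred by comparing each SE with the counting limit for 3 and 2 libraries, taking size factors near 1. Among genes near 0 in one group (fitted mean under 0.6), 13 negative and 0 positive changes had an SE under 1.44, the limit for 2 empty libraries. The adjustment of p-values and the direction check were run on simulated data. The simulated errors were built from the same counting limit, so that run cannot show that the inferred direction is right. Members and lists were chosen with earlier results of these data known. Named genes were the members, set partners, and per list up to 4 called genes with the smallest adjusted p, or the 2 most abundant. One gene that this rule names is not reported here. Alternatives were a stricter threshold, a 1.5-fold null, a t reference, a minimum mean of 50 and recentring on genes averaging 10000 or more or on secreted plasma proteins. Promoter sequences are RefSeq's on GRCm38.p6, another build than the table's, matched by symbol. The software was Python 3.11.15 with scipy 1.17.1, pandas 2.3.3, numpy 2.4.6 and, for plots, matplotlib 3.10.9.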

Additional observations from a re-analysis of the deposited data

How the results depend on the processing

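Of the 10 ploidy control genes, 6 rose and 0 fell. The 6 became 0 when tested against a 1.5-fold null and 0 against a t distribution with 3 degrees of freedom, 5 at an adjusted p under 0.01, 6 with a minimum mean of 50 or recentring on genes averaging 10000 or more, and 8 with recentring on secreted plasma proteins, which adds 0.58 to each log2 fold change. That recentring turned Pidd1 to 0.55 and Cradd to 0.11. The count of genes that fell stayed 0 under all 6 alternatives. Over all genes, 1828 rose and 1705 fell. Rises and falls became 1210 and 1164 at an adjusted p under 0.01, and 521 and 588 in the 1.5-fold test. With the t reference they became 0 and 0 (2513 genes at an unadjusted p under 0.05). Recentring on secreted plasma proteins gave 6773 and 851. The cause of the other changes was not tested. No paired analysis was possible because the groups share no replicate numbers and the table holds no values of single libraries. For the latter reason leaving out each replicate, edgeR and DESeq2 were not run, and depth per library is unknown.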
